A study of Rattus norvegicus with 6 samples.

Results

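The endocannabinoid genes examined here were 10 features of a gene expression table of the rat amygdala, taken by symbol from the 32662 features of the table. They comprised the receptor genes Cnr1 and Cnrip1, the 2-AG genes Dagla, Daglb, Mgll, Abhd6 and Abhd12, and the anandamide genes Napepld, Faah and Abhd4. The tissue came from rats of the outbred Sprague Dawley strain at postnatal day 38, all labelled as male. In the B-CTRL group (3 libraries) the amygdala was taken after behavioural testing for social play, and in the NB-CTRL group (3 libraries) the rats were labelled as not behaviourally tested. The labels name no drug, mutation or other agent for either group. Nor do they tie each library to its own animal, and the p-values below rest on the spread among libraries, part of which may be technical.

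Endocannabinoids are lipid messengers that neurons make on demand from membrane phospholipids and that travel backwards across the synapse. They act on the presynaptic CB1 receptor, which lowers transmitter release from both glutamate and GABA terminals. The main messengers, 2-arachidonoylglycerol (2-AG) and anandamide, are made and broken down by separate enzymes. In juvenile rats this signalling, in the amygdala among other regions, is known to shape social play.

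Values were FPKM, fragments per kilobase of transcript and per unit of mapped fragments, so levels can be compared between genes. Differences are B-CTRL minus NB-CTRL on the log2(FPKM + 0.5) scale, where the pseudocount shrinks the differences of low genes, with adjusted p-values from limma with Benjamini-Hochberg adjustment over all 14043 features whose mean was at least 0.5 FPKM. Of the 10 genes 9 passed that filter and Faah did not. The libraries differed in makeup and in 1 case from their label. FPKM sums were 579141 to 641725 in B-CTRL and 522422 to 536937 in NB-CTRL libraries. Depth relative to NB-CTRL 1, estimated roughly from the steps between low values, was 0.722 to 1.39 in B-CTRL and 1 to 1.67 in NB-CTRL libraries, and absolute depth is unknown. Features on chromosome Y summed to 0.612 FPKM in B-CTRL 1, against 89.4 to 129 FPKM in the other 5 libraries, so B-CTRL 1 goes against its male label. That library also held choroid plexus transcripts (a sum of 7207 FPKM over 5 markers, with Otx2 listed at 0 in every library, against 5.25 to 27.9 FPKM elsewhere). Excitatory neuron markers (4 of 5 higher on average in B-CTRL) summed to 12.7 to 477 FPKM in B-CTRL and 24.8 to 321 FPKM in NB-CTRL libraries. Striatal projection neuron markers (6 of 6 higher) summed to 1597 to 5298 FPKM in B-CTRL and 1603 to 3662 FPKM in NB-CTRL libraries. Markers of amygdala nuclei (3 of 7 higher) summed to 240.2 to 462 FPKM in B-CTRL and 317 to 382 FPKM in NB-CTRL libraries. Each of the 7 was above 0 in every library, though Rspo2 ran from 0.299 FPKM in B-CTRL 2 to 19.3 FPKM in B-CTRL 1. In bulk tissue, fewer cells of a type and less RNA per cell cannot be told apart.

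Transcripts for the CB1 receptor and for 2-AG turnover were abundant in both groups, and none of the 9 tested genes differed between B-CTRL and NB-CTRL beyond the spread between libraries. Of the 9 genes 6 had a higher and 3 a lower mean log2 level in B-CTRL, and their median log2 difference was 0.20, against 49.7% of all tested features higher and a median of -0.0024. That median of the 9 genes was 0.082 to 0.16 with 1 library left out and 0.068 with quantile normalization. By limma 0 of 9 passed an adjusted p of 0.05 (lowest adjusted p = 0.437), as did 0% of all tested features. At an unadjusted p under 0.05 the count was 0 of 9 members, against 12.3% of all tested features. The groups overlapped for each of the 10 genes, while 23.7% of all tested features had groups that did not overlap. The median standard error of a tested feature was 0.20 log2, and an exact permutation test of 3 against 3 libraries cannot go below 0.1.

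**Figure D1:**
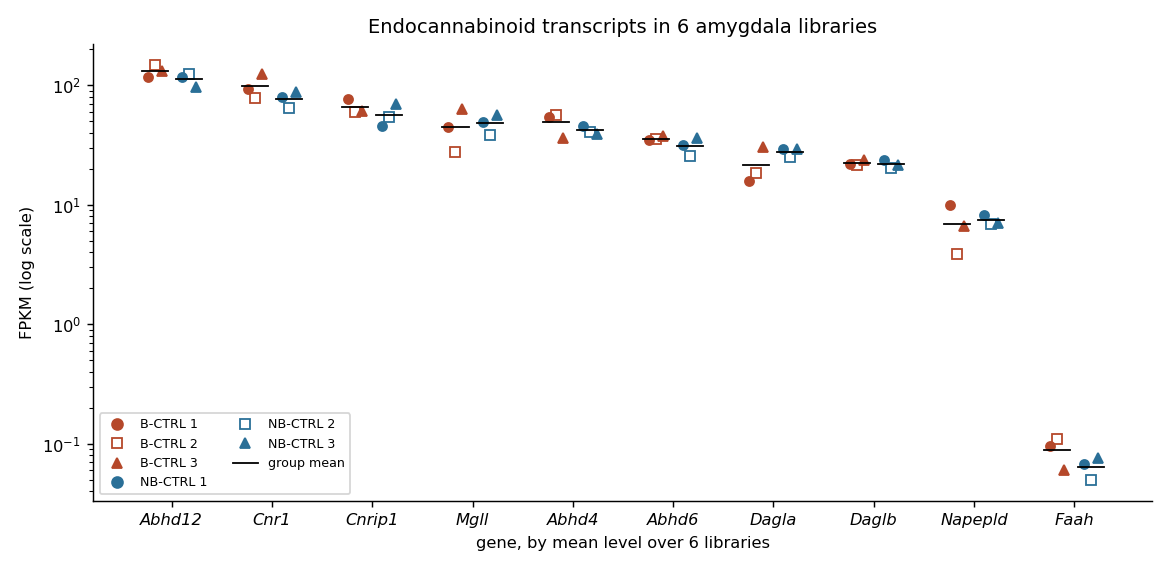
FPKM (log axis) of the 10 genes in each library, ordered by their mean over 6 libraries. Points are libraries, B-CTRL left of NB-CTRL, and bars are group means. The 9 tested genes run from 123 FPKM for Abhd12 to 7.13 FPKM for Napepld, the value listed for Faah is not read as its tissue level, and the groups overlap for each gene.

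The order of mean levels over the 6 libraries was Abhd12 (123 FPKM), Cnr1 (88.1 FPKM), Cnrip1 (61.2 FPKM), Mgll (46.6 FPKM), Abhd4 (45.6 FPKM), Abhd6 (33.5 FPKM), Dagla (24.7 FPKM), Daglb (22.2 FPKM) and Napepld (7.13 FPKM). Faah was listed at a mean of 0.0761 FPKM and is left out of this order, for the reason given with its values. Library ranges of neighbours overlapped down to Daglb, and they lay apart between Daglb and Napepld. Within each of the 6 libraries Abhd12 lay above Cnr1, Cnr1 above Cnrip1 and Abhd6 above Dagla. Mgll and Abhd4 changed places, with Mgll higher in 3 of 6 libraries.

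Promoters are shown for the most and the least abundant of the 9 tested genes, so that their sequences can be set beside their levels. They are the 250 bases before the RefSeq transcription start in build GRCr8, 5′ to 3′ on the gene's strand. Capitals mark the GC box GGGCGG, the E-box CACGTG and the CRE half-site TGACG, searched on both strands, none of which overlap here. Abhd12 is the minus-strand stretch chr3:160179930-160180179, and Napepld is the plus-strand stretch chr4:14253010-14253259.
Abhd12: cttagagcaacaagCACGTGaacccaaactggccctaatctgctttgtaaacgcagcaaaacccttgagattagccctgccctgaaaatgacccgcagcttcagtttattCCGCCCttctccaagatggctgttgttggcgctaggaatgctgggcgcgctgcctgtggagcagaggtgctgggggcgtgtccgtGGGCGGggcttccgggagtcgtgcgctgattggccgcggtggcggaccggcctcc
Napepld: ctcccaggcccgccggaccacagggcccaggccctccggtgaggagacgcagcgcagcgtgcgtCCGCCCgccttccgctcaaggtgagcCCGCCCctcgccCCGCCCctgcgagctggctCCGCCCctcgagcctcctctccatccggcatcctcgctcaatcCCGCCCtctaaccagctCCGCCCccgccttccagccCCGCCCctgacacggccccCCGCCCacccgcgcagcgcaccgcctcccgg

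The Napepld stretch held 8 GC boxes, all read on the opposite strand, with a G and C content of 77.2%. The Abhd12 stretch held 2 GC boxes and 1 E-box at a G and C content of 60.4%. RefSeq promoters were matched for 8 of the 10 genes, all but Cnr1 and Dagla. Their G and C content was 56.4% to 77.2%, against a median of 51.2% over all 33469 promoter windows of the same length. Of these 8, 6 held a GC box, which 30.5% of all windows hold. The part of base composition in the motif counts was not tested. The CRE half-site was in Cnrip1 and Daglb (2 of 8, against 18.2% of all windows) and the E-box in Mgll and Abhd12 (2 of 8, against 5.59%). These are letter matches, and binding was not measured.

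Cnr1 encodes CB1, the G protein-coupled receptor through which both messengers act. It had 93.3, 78.9 and 124 FPKM in B-CTRL 1, 2 and 3, against 79.4, 65.2 and 87.7 FPKM in NB-CTRL 1, 2 and 3. B-CTRL 3 was the highest and NB-CTRL 2 the lowest library, and B-CTRL 2 lay below both NB-CTRL 1 and 3. The means were 98.7 ± 22.9 FPKM in B-CTRL and 77.4 ± 11.4 FPKM in NB-CTRL (SD, n = 3 each), a log2 difference of 0.33 ± 0.20 SE (limma adjusted p = 0.447). The fold was 1.26 with a 95% interval of 0.908 to 1.75, so the interval reaches from slightly lower to 1.75-fold higher in B-CTRL. The library highest in Cnr1 was also the highest in striatal projection neuron markers (5298 FPKM in B-CTRL 3), and NB-CTRL 2, the lowest in Cnr1, had 1603 FPKM of them. B-CTRL 1, with the fewest (1597 FPKM), held the second-highest Cnr1 value. The 3 libraries highest in Cnr1 (B-CTRL 3, B-CTRL 1 and NB-CTRL 3) were also the highest in summed cholecystokinin interneuron and excitatory neuron markers. They were the lowest in summed GABA neuron markers. These summed to 428, 710 and 602 FPKM in B-CTRL 1, 2 and 3, against 649, 780 and 574 FPKM in NB-CTRL 1, 2 and 3 (0 of 3 higher on average in B-CTRL). Cholecystokinin interneuron markers, of a cell type rich in CB1, summed to 175, 80.8 and 156 FPKM in B-CTRL 1, 2 and 3, against 78.0, 93.4 and 138 FPKM in NB-CTRL 1, 2 and 3 (4 of 6 higher on average in B-CTRL, with Npy listed at 0 in every library). Cck itself had 107, 12.2 and 79.6 FPKM in B-CTRL 1, 2 and 3, against 16.9, 24.7 and 67.3 FPKM in NB-CTRL 1, 2 and 3. Other members did not all follow Cck. Htr3a was lowest in B-CTRL 1 (5.92 FPKM) and NB-CTRL 3 (6.55 FPKM), and Slc17a8 was highest in NB-CTRL 1 (5.64 FPKM). Excitatory neuron markers summed to 477, 12.7 and 161 FPKM in B-CTRL 1, 2 and 3, against 24.8, 44.4 and 321 FPKM in NB-CTRL 1, 2 and 3. The part of these marker lists in the Cnr1 values was not tested. Without B-CTRL 3 the log2 difference of Cnr1 was 0.16 ± 0.17 SE (limma adjusted p = 0.569). Without B-CTRL 1 it was 0.36 ± 0.24 SE (limma adjusted p = 0.443). In build rn6 Cnr1 lies at chromosome 5, 49311029 to 49333056 (ENSRNOG00000008223), on a locus of its own.

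Cnrip1 encodes CRIP1a, a protein that binds the intracellular tail of CB1 and dampens its signalling. It had 77.3, 59.4 and 60.8 FPKM in B-CTRL 1, 2 and 3, against 45.4, 53.9 and 70.5 FPKM in NB-CTRL 1, 2 and 3. B-CTRL 1 was the highest library, and NB-CTRL 3 lay above B-CTRL 2 and 3. The log2 difference was 0.23 ± 0.20 SE (limma adjusted p = 0.567). It was 0.11 without B-CTRL 1, 0.084 without NB-CTRL 1, 0.13 with quantile normalization, and 0.40 without NB-CTRL 3 or with the length trend removed. The ratio of Cnrip1 to Cnr1 was 0.828, 0.753 and 0.491 in B-CTRL 1, 2 and 3, against 0.572, 0.827 and 0.804 in NB-CTRL 1, 2 and 3, so 1 library of each group was low. Cnrip1 shares its locus in the table (chromosome 14, 100151209 to 100247235 in rn6, ENSRNOG00000005326) with 2 other features, among them Plek at 3.94 to 6.07 FPKM, and its value is less certain for that reason. Its length trend was removed by the length of this shared locus, which need not be that of the gene.

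**Figure D2:**
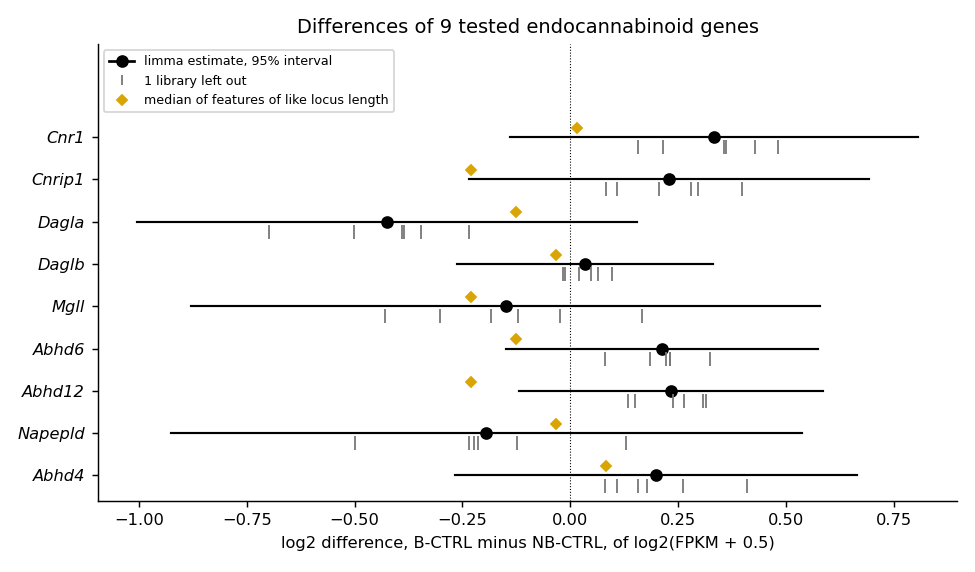
Log2 difference, B-CTRL minus NB-CTRL, of the 9 tested genes. Black points and lines are limma estimates with 95% intervals, and grey ticks the estimates with 1 library left out. Yellow diamonds are the median of tested features with a locus of their own in the same of 8 classes of locus length. Cnrip1 and Abhd12 are each classed by the length of a locus shared with at least 1 other feature. Each interval spans 0, and ticks lie on both sides of 0 for Daglb, Mgll and Napepld.

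Dagla and Daglb encode the diacylglycerol lipases that make 2-AG, of which the alpha form is the main synthase at adult synapses. Dagla had 15.7, 18.4 and 30.3 FPKM in B-CTRL 1, 2 and 3, against 29.5, 25.0 and 29.3 FPKM in NB-CTRL 1, 2 and 3. B-CTRL 1 and 2 lay below the NB-CTRL libraries and B-CTRL 3 lay above them. The means were 21.4 ± 7.76 FPKM in B-CTRL and 27.9 ± 2.52 FPKM in NB-CTRL (SD, n = 3 each). The log2 difference was -0.43 ± 0.24 SE (limma adjusted p = 0.437), the largest in size of the 9 genes, at 0.745-fold with a 95% interval of 0.498 to 1.11. Without B-CTRL 3 it was -0.70 ± 0.14 SE (limma adjusted p = 0.108), and without B-CTRL 1 it was -0.23 ± 0.23 SE (limma adjusted p = 0.594), with adjusted p between 0.108 and 0.704 over the 17 alternative fits. Dagla lies at chromosome 1, 226297015 to 226353611 (ENSRNOG00000027264, rn6). Features with loci of like length had a median log2 difference of -0.13.

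Daglb held the steadiest level of the 10 genes over the 6 libraries, between 21.5 and 23.9 FPKM in B-CTRL and between 20.4 and 23.9 FPKM in NB-CTRL. Its highest library was 1.17 times its lowest, against a median of 1.62 times over the 9289 tested features with means of 5 to 150 FPKM. The log2 difference was 0.034 ± 0.13 SE (limma adjusted p = 0.907), and the 95% interval of 0.833- to 1.26-fold sets the size of change that these libraries could have missed. Dagla made up 41.7%, 46.1% and 55.9% of the summed Dagla and Daglb level in B-CTRL 1, 2 and 3, against 55.2%, 55.1% and 57.7% in NB-CTRL 1, 2 and 3. Daglb was thus the more abundant synthase transcript in B-CTRL 1 and 2, and Dagla in the other 4 libraries. Daglb lies at chromosome 12, 13113236 to 13157666 (ENSRNOG00000001079, rn6).

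Mgll encodes monoacylglycerol lipase, the presynaptic enzyme that ends most 2-AG signalling. It had 44.9, 27.4 and 63.3 FPKM in B-CTRL 1, 2 and 3, against 49.3, 38.3 and 56.6 FPKM in NB-CTRL 1, 2 and 3. B-CTRL held both the lowest and the highest library, with a coefficient of variation of 39.7%, against 19.2% in NB-CTRL. Over the tested features with means of 5 to 150 FPKM the median coefficient was 18.9% in B-CTRL and 8.68% in NB-CTRL, so a wider spread in B-CTRL was shared with the table as a whole. The log2 difference of Mgll was -0.15 ± 0.31 SE (limma adjusted p = 0.827). B-CTRL 2, the lowest in Mgll, was also the library in which features with long loci were lowest (median deviation -0.33 log2 in the longest of 8 classes, which holds the 99.6 kb locus of Mgll), and without it the difference was 0.17 ± 0.23 SE (limma adjusted p = 0.826). Mgll lies at chromosome 4, 120671488 to 120771088 (ENSRNOG00000014508, rn6).

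Abhd6 and Abhd12 encode serine hydrolases that break down the remaining 2-AG, Abhd6 on the postsynaptic side. Abhd6 had 34.9, 35.4 and 37.4 FPKM in B-CTRL 1, 2 and 3, against 31.8, 25.7 and 36.1 FPKM in NB-CTRL 1, 2 and 3, with NB-CTRL 3 above B-CTRL 1 and 2. Its log2 difference was 0.21 ± 0.15 SE (limma adjusted p = 0.505), and it was 0.082 without NB-CTRL 2 and 0.32 without NB-CTRL 3. Abhd12, which also hydrolyses lysophosphatidylserine, had 119, 149 and 132 FPKM in B-CTRL 1, 2 and 3, against 117, 125 and 97.6 FPKM in NB-CTRL 1, 2 and 3. NB-CTRL 2 lay above B-CTRL 1, and the log2 difference was 0.23 ± 0.15 SE (limma adjusted p = 0.466). With the trend of each library over locus length taken out it was 0.41 ± 0.20 SE (limma adjusted p = 0.438) and with quantile normalization 0.068 ± 0.13 SE (limma adjusted p = 0.807). Markers of microglia, in which Abhd12 is abundant, were higher on average in B-CTRL for 5 of 6 genes. They summed to 167 to 233 FPKM in B-CTRL and 161 to 181 FPKM in NB-CTRL libraries, with the highest sum in B-CTRL 1, the lowest of the B-CTRL libraries in Abhd12. Abhd12 (ENSRNOG00000036934) shares its rn6 locus at chromosome 3, 146582751 to 146690375, with Pygb. Pygb had 54.3, 28.4 and 35.2 FPKM in B-CTRL 1, 2 and 3, against 44.2, 66.0 and 45.6 FPKM in NB-CTRL 1, 2 and 3, and how fragments were divided between them was not tested. The length trend of Abhd12 was removed by the length of this shared locus, which need not be that of the gene. Abhd6 lies on its own locus at chromosome 15, 18647843 to 18695133 (ENSRNOG00000008167).

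Summed over the 3 hydrolases, the transcript level was 5.27, 5.32 and 4.29 times that of the 2 synthases in B-CTRL 1, 2 and 3, against 3.71, 4.15 and 3.75 times in NB-CTRL 1, 2 and 3. Each B-CTRL library lay above each NB-CTRL library. Of all tested features, taken singly, 23.7% had groups that did not overlap. This ratio was chosen after the values were seen and is given without a test. Abhd12 made up 56.7% to 70.3% of the hydrolase sum in B-CTRL and 51.3% to 66.1% in NB-CTRL libraries. Abhd12 alone stood at 3.15, 3.74 and 2.43 times the synthase sum in B-CTRL 1, 2 and 3, against 2.19, 2.75 and 1.92 times in NB-CTRL 1, 2 and 3, and the groups overlapped. With Mgll and Abhd6 alone the ratio was 2.12, 1.58 and 1.86 in B-CTRL 1, 2 and 3, against 1.52, 1.41 and 1.83 in NB-CTRL 1, 2 and 3, and the groups overlapped too.

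**Figure D3:**
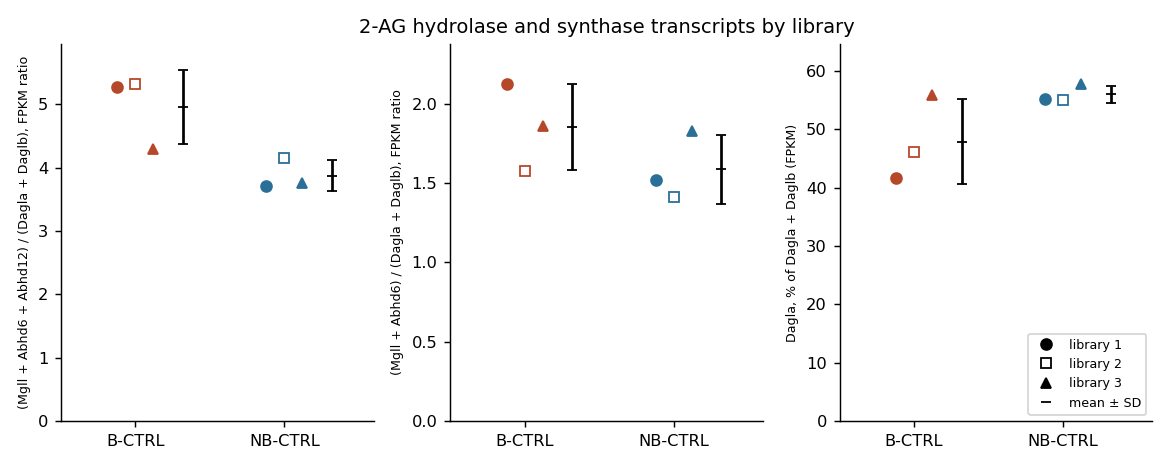
Ratios of 2-AG hydrolase to synthase transcripts with and without Abhd12, and the share of Dagla in the synthase sum, from FPKM. Points are libraries and bars the mean ± SD of 3 libraries. The first ratio is 4.29 to 5.32 in B-CTRL and 3.71 to 4.15 in NB-CTRL, and the groups overlap in the other panels.

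Napepld encodes NAPE-PLD, the phospholipase that releases anandamide from its membrane precursor in 1 step. It had 10.04, 3.90 and 6.59 FPKM in B-CTRL 1, 2 and 3, against 8.21, 6.96 and 7.08 FPKM in NB-CTRL 1, 2 and 3. B-CTRL held both the highest and the lowest library, with a coefficient of variation of 45.0%, against 9.28% in NB-CTRL. The log2 difference was -0.19 ± 0.31 SE (limma adjusted p = 0.767), and without B-CTRL 2 it was 0.13 ± 0.21 SE (limma adjusted p = 0.849). Napepld lies at chromosome 4, 9966890 to 10002247 (ENSRNOG00000011363, rn6).

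Abhd4 encodes a lipase that starts a second route to anandamide by removing acyl chains from the same precursor. It had 54.8, 57.0 and 35.9 FPKM in B-CTRL 1, 2 and 3, against 45.8, 40.8 and 39.5 FPKM in NB-CTRL 1, 2 and 3. B-CTRL 1 and 2 lay above the NB-CTRL libraries and B-CTRL 3 below them, the reverse of Dagla. The log2 difference was 0.20 ± 0.20 SE (limma adjusted p = 0.622), and without B-CTRL 3 it was 0.41 ± 0.12 SE (limma adjusted p = 0.125). Without B-CTRL 1 it was 0.11 ± 0.22 SE (limma adjusted p = 0.805). The ratio of Napepld to Abhd4 was 0.183, 0.0684 and 0.184 in B-CTRL 1, 2 and 3, against 0.179, 0.171 and 0.179 in NB-CTRL 1, 2 and 3, so B-CTRL 2 alone stood apart. Abhd4 lies at chromosome 15, 32894937 to 32906850 (ENSRNOG00000009244, rn6).

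Faah encodes fatty acid amide hydrolase, the enzyme that breaks down anandamide in the brain. It was listed at 0.0959, 0.109 and 0.0599 FPKM in B-CTRL 1, 2 and 3, against 0.0670, 0.0496 and 0.0755 FPKM in NB-CTRL 1, 2 and 3, and was not tested. Its rn6 locus, chromosome 5, 134852874 to 134871775 (ENSRNOG00000045949), is shared with AC110367.1, which was listed at 0 in every library. The next feature on 1 side, Nsun4, stood at 0 to 0.0673 FPKM. Uqcrh, the next after it and a subunit gene of respiratory complex III, stood at 281 to 409 FPKM in B-CTRL and 246 to 261 FPKM in NB-CTRL. All 37 features on the mitochondrial chromosome were listed at 0 in every library, and so was Npy, a neuropeptide gene of amygdala interneurons. A value of 0 in this table need not mean an absent transcript. Faah was above 0 in every library, and whether its low values reflect its transcript level was not tested. No level of Faah in the tissue is read from these values, and anandamide breakdown is not described here.

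**Figure D4:**
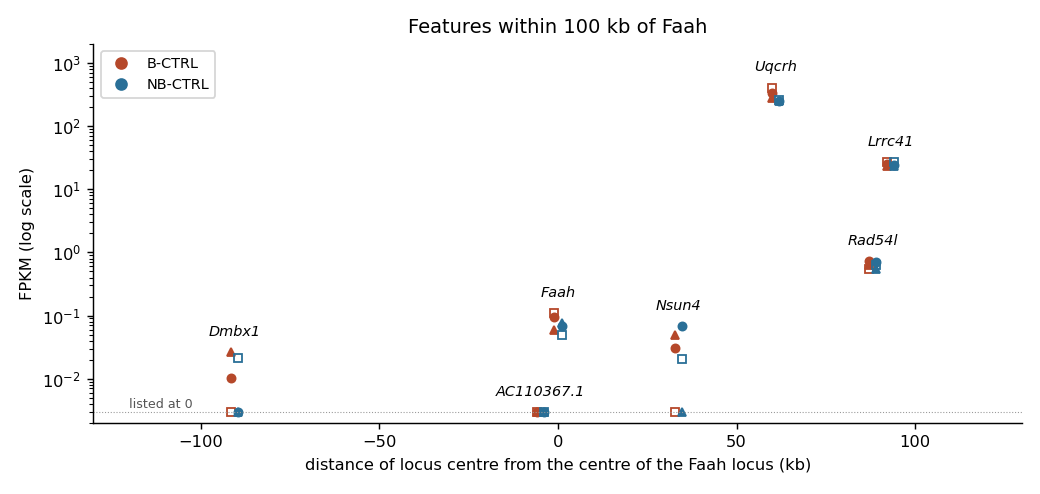
FPKM (log axis) of features within 100 kb of Faah against the distance of their locus centre from that of Faah. Points are libraries, values listed at 0 are drawn on the dotted line, and features sharing a locus are shifted sideways. Faah and Nsun4 lie at or below 0.109 FPKM, and Uqcrh lies at 246 FPKM or above in each library.

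Between the arms of the system, the 5 2-AG genes had a median log2 difference of 0.034 (3 higher and 2 lower in B-CTRL), and the 2 tested anandamide genes had 0.0021 (1 higher and 1 lower). With 1 library left out the 2-AG median ran from -0.016 (without NB-CTRL 2) and -0.011 (without B-CTRL 3) to 0.15 (without B-CTRL 2). Without B-CTRL 1 the medians were 0.048 for 2-AG and -0.20 for anandamide genes. The anandamide value is the median of 2 genes with opposite signs. Without B-CTRL 1, which goes against its label, the log2 difference of Napepld was -0.50 ± 0.25 SE (limma adjusted p = 0.370) and that of Cnrip1 was 0.11 ± 0.20 SE (limma adjusted p = 0.786). Those of Daglb (0.048), Mgll (-0.18), Abhd6 (0.23) and Abhd12 (0.31) kept their direction, and 0 of 9 genes passed the test.

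The genes whose pattern over the 6 libraries was most like that of Cnr1, among 7323 named features with a locus of their own and a mean of at least 5 FPKM, were Armc1 (Pearson r = 0.97), Dusp6 (r = 0.97), Bysl (r = 0.96), Zfp280d (r = 0.96) and Fos (r = 0.95). These r are descriptions over 6 libraries of 2 groups. The libraries differ in depth and tissue makeup, and the part of these differences in r was not tested. Fos, an immediate early transcription factor, had 11.8, 10.4 and 25.8 FPKM in B-CTRL 1, 2 and 3, against 7.46, 4.12 and 7.85 FPKM in NB-CTRL 1, 2 and 3. Dusp6, a phosphatase of ERK kinases, had 13.3, 10.6 and 20.5 FPKM in B-CTRL 1, 2 and 3, against 11.4, 6.31 and 13.7 FPKM in NB-CTRL 1, 2 and 3. Like Cnr1, both were highest in B-CTRL 3 and lowest in NB-CTRL 2, and so were Armc1, Bysl and Zfp280d. The genes were chosen by their r to Cnr1 over these libraries, which makes such sharing likely. Among the endocannabinoid genes with a locus of their own Abhd6 came closest (rank 126, r = 0.79), then Daglb (rank 374, r = 0.67) and Mgll (rank 409, r = 0.65). Dagla (r = 0.16) and Napepld (r = 0.14) were far from Cnr1, and Abhd4 ran the other way (r = -0.32). Cnrip1, Abhd12 and Faah share their loci with other features and were not ranked.

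**Figure D5:**
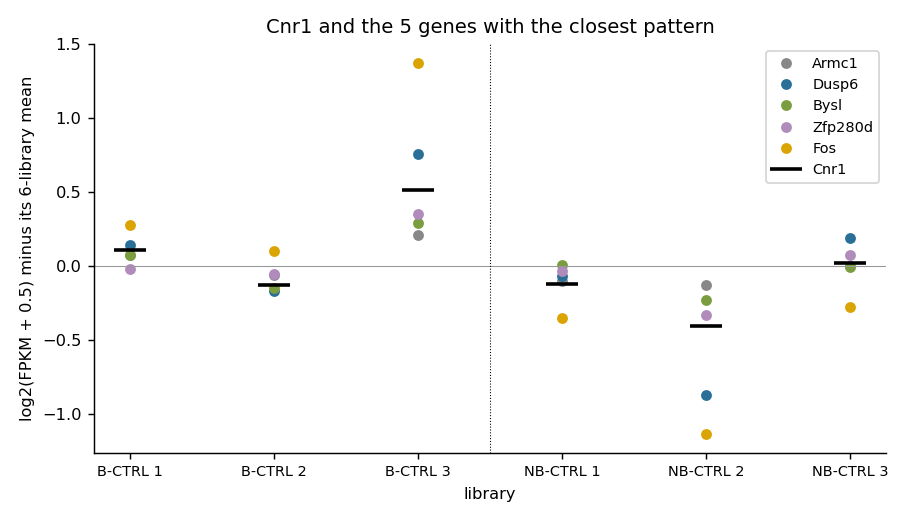
Level of Cnr1 (black bars) and of the 5 genes with the closest pattern (coloured points) in each library, as log2(FPKM + 0.5) minus the gene's 6-library mean. B-CTRL libraries are left of the dotted line. Each gene is highest in B-CTRL 3 and lowest in NB-CTRL 2, which the choice of genes by their likeness to Cnr1 makes likely.

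Of 45 other genes of the pathway (further receptors, alternative enzymes, lipid carriers, and the G proteins, phospholipases and channels coupled to CB1 or to 2-AG release, and also Lox, a collagen-modifying enzyme gene that does not belong to the pathway), 43 were in the table and 34 were tested, Lox among them and among the lower ones (log2 difference -0.00019). By limma 0 rose and 0 fell at an adjusted p of 0.05. At an unadjusted p under 0.05, 3 were higher and 2 lower in B-CTRL, against 6.25% and 6.07% of all tested features. Of the 34 genes 12 were higher and 22 lower on average (median log2 difference -0.14). The groups did not overlap for 9 of the 34, against 23.7% of all tested features.

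Pla2g16, a phospholipase that can also form N-acylated phospholipids, had the lowest p among those higher in B-CTRL. It had 109, 111 and 73.5 FPKM in B-CTRL 1, 2 and 3, against 72.5, 60.3 and 62.5 FPKM in NB-CTRL 1, 2 and 3, a log2 difference of 0.56 ± 0.19 SE (limma adjusted p = 0.40). Gde1, the phosphodiesterase that can complete the route opened by Abhd4, had 143, 137 and 148 FPKM in B-CTRL 1, 2 and 3, against 122, 116 and 119 FPKM in NB-CTRL 1, 2 and 3, a log2 difference of 0.26 ± 0.11 SE (limma adjusted p = 0.40). In both genes each B-CTRL library lay above each NB-CTRL library, as in 11.7% of all tested features, and neither passed the test.

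Cacna1b, the pore subunit of the N-type calcium channel that CB1 inhibits at terminals, had the lowest p among those lower in B-CTRL. It had 12.2, 9.66 and 17.4 FPKM in B-CTRL 1, 2 and 3, against 21.2, 24.9 and 23.4 FPKM in NB-CTRL 1, 2 and 3, a log2 difference of -0.84 ± 0.22 SE (limma adjusted p = 0.40). The intracellular lipase gene Ddhd2, whose locus is shared with another feature, had 27.5, 21.7 and 30.1 FPKM in B-CTRL 1, 2 and 3, against 34.3, 39.7 and 34.2 FPKM in NB-CTRL 1, 2 and 3 (log2 difference -0.45 ± 0.16 SE, limma adjusted p = 0.40). In both genes each B-CTRL library lay below each NB-CTRL library, as in 12% of all tested features.

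Among the 5 pathway genes with the highest mean levels were Gde1 and the intracellular lipid carrier genes Fabp5 and Fabp7. Fabp5 averaged 143 FPKM in B-CTRL and 99.9 FPKM in NB-CTRL (log2 difference 0.49 ± 0.20 SE, limma adjusted p = 0.40). Fabp7, which is expressed in astrocytes, averaged 169 FPKM in B-CTRL and 92.9 FPKM in NB-CTRL (log2 difference 0.76 ± 0.39 SE, limma adjusted p = 0.416), with B-CTRL 1 at 262 FPKM. Astrocyte markers (3 of 5 higher on average in B-CTRL) summed to 534 to 796 FPKM in B-CTRL and 616 to 681 FPKM in NB-CTRL libraries, with the highest sum also in B-CTRL 1, and their part in the Fabp7 values was not tested. Gnao1, which encodes a G protein subunit that couples to CB1 and shares its locus with another feature, averaged 184 FPKM in B-CTRL and 225 FPKM in NB-CTRL (log2 difference -0.34 ± 0.25 SE, limma adjusted p = 0.509). Abhd16a, a lipase that makes lysophosphatidylserine, averaged 107 FPKM in B-CTRL and 110.4 FPKM in NB-CTRL (log2 difference -0.050 ± 0.12 SE, limma adjusted p = 0.850). The second cannabinoid receptor gene, Cnr2, averaged 0.557 FPKM in B-CTRL and 0.502 FPKM in NB-CTRL.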

How the data were processed

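Poly(A)-selected, directional RNA-seq libraries of rat amygdala were measured, 3 per group. The authors deposited FPKM values, 1 column per library. Per the submitters' processing notes STAR 2.5.4b, Cuffdiff 2.2.1 and build rn6 were used, and neither settings nor annotation are stated in the sources at hand. FPKM hold no counts, so counting intervals cannot be given.

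From the deposited FPKM, log2(FPKM + 0.5) was computed for features averaging 0.5 FPKM or more across all 6 libraries. The B-CTRL and NB-CTRL values were then fitted with limma 3.58.1 (R 4.3.3; 2-sided, intensity trend, no covariates, Benjamini-Hochberg). Residual and prior degrees of freedom were 4 and 2.97. It was tested on simulated data. The members and lists were chosen with earlier results of these data known. All members were named, with the pathway genes of lowest p (2 per direction) and of highest mean level (5) and the 5 features most like Cnr1. Cnr2 was named outside that rule. Promoter sequences are from RefSeq, build GRCr8, and coordinates of genes are those of the deposited table, in rn6. Alternatives were other pseudocounts, filters, scalings, variance models, thresholds, removal of the trend with locus length (loess), the replicate number as a block, and leaving out each library.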

Additional observations from a re-analysis of the deposited data

How the results depend on the processing

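No endocannabinoid gene passed an adjusted p of 0.05 by limma under any of the 17 alternative fits or at a threshold of 0.1, and the lowest adjusted p was 0.108 (Dagla without B-CTRL 3). The number of all features called was 0 to 1 with 1 library left out, the 1 being SNORA70 (ENSRNOG00000054339) without NB-CTRL 3, and 0 in the other fits and at a threshold of 0.1; 1730 features had an unadjusted p under 0.05. Cnr1, Cnrip1, Dagla, Abhd6, Abhd12 and Abhd4 kept their direction in all 17 fits. Mgll turned to 0.025 log2 with the length trend removed and ran from -0.43 to 0.17 with 1 library left out. Napepld turned to 0.0054 with library weights and ran from -0.50 to 0.13. Daglb ran from -0.016 to 0.097. The median log2 difference of the 9 tested genes was 0.29 with median scaling, which also moved the median of all tested features to 0.091, against -0.0024 as reported. It was 0.068 with quantile normalization (all features 0.032) and 0.082 to 0.16 with 1 library left out; the cause of these moves was not tested.

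An unadjusted p under 0.05 was reached by Cnr1 without B-CTRL 2, by Dagla with library weights, and by Dagla and Abhd4 without B-CTRL 3. In these fits 1236, 2038 and 3644 of the 14043 tested features reached it, in that order. Libraries with the same replicate number did not deviate together (correlations of -0.22, 0.072 and 0.15 for numbers 1, 2 and 3), and with the replicate block 0 features and 0 members were called. The number of libraries and the unknown depth limit what size of change could be seen.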
